A study of Mus musculus with 2 samples.

Results

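The genes described here are those of the core Notch pathway: the receptors Notch1, Notch2, Notch3 and Notch4, the ligands Dll1, Dll3, Dll4, Jag1 and Jag2, and Rbpj, which encodes the DNA-binding partner of the cleaved receptor. They were taken by gene symbol from the deposited expression table, where 9 of the 10 names had a row among 13620 genes, and Dll4 was not listed and is not analysed here. Poly(A) RNA was sequenced from C57BL/6J mouse embryonic stem (ES) cells of genotype Fbxl10 T/T and from wild-type (WT) cells, with 1 library of each. Both cultures were kept in serum with leukemia inhibitory factor on mitotically inactivated mouse fibroblasts, which were largely removed by attachment before RNA was made. Fbxl10 is another name of Kdm2b, a Polycomb protein that binds unmethylated CpG islands, and the series concerns Polycomb-bound genes. The labels do not say what the T allele changes in the gene, or whether either library comes from 1 clone or several cultures.

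Notch signalling passes between touching cells. A Delta-like or Jagged ligand on one cell pulls on a Notch receptor of its neighbour, an ADAM protease and then gamma-secretase cut the receptor, and the freed intracellular part joins RBPJ on DNA and switches RBPJ from a repressor to an activator of genes such as Hes1 and Hey1. In mouse ES cells the pathway is known for steering cells out of self-renewal, chiefly towards neural fates, rather than for maintaining them.

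Levels are normalised CPM, the deposited read counts scaled by an effective library size. One read was worth 0.0405 CPM in Fbxl10 T/T and 0.0419 CPM in WT, from 27109446 reads in listed genes in Fbxl10 T/T and 21198574 in WT. With 1 library per genotype no difference was tested, so "higher" and "lower" compare these 2 libraries. All intervals are exact 95% intervals of read counting (binomial for ratios and shares, Poisson for levels), and cover counting error alone: they hold no variation between cultures, and PCR copies of a molecule are not independent. Kdm2b itself was at 10.6 CPM in Fbxl10 T/T and 102.5 CPM in WT. The 10 pluripotency markers summed to 1116 CPM in Fbxl10 T/T and 6270 CPM in WT, and the 10 markers of extraembryonic endoderm, such as Gata4, Gata6 and Sox17, to 47532 CPM in Fbxl10 T/T and 5055 CPM in WT. The Fbxl10 T/T library thus had less RNA of markers of its labelled cell type and more of endoderm. In bulk RNA, fewer cells of a type and less RNA per cell cannot be told apart.

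The receptors Notch1, Notch2 and Notch3 were at nearly the same level in both libraries, whereas Notch4, 3 of the 4 listed ligands and Rbpj were lower in Fbxl10 T/T. Jag1 was the ligand that was not lower. Of the 9 listed genes, 5 were at least 2-fold lower, 0 were at least 2-fold higher and 4 lay in between, on the log2(CPM + 0.5) scale that shrinks the ratios of low genes. Over the 13512 genes that reached 1 CPM in either library, 20.6% were 2-fold lower and 14.8% were 2-fold higher. The median log2 ratio was -1.13 over the 9 genes and 0.02 over all genes. Every gene in the table had at least 28 reads in Fbxl10 T/T or 22 reads in WT, and Dll3, with 15 reads in Fbxl10 T/T, was listed through its WT level alone, so these counts describe the listed genes and are no test.

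**Figure D1:**
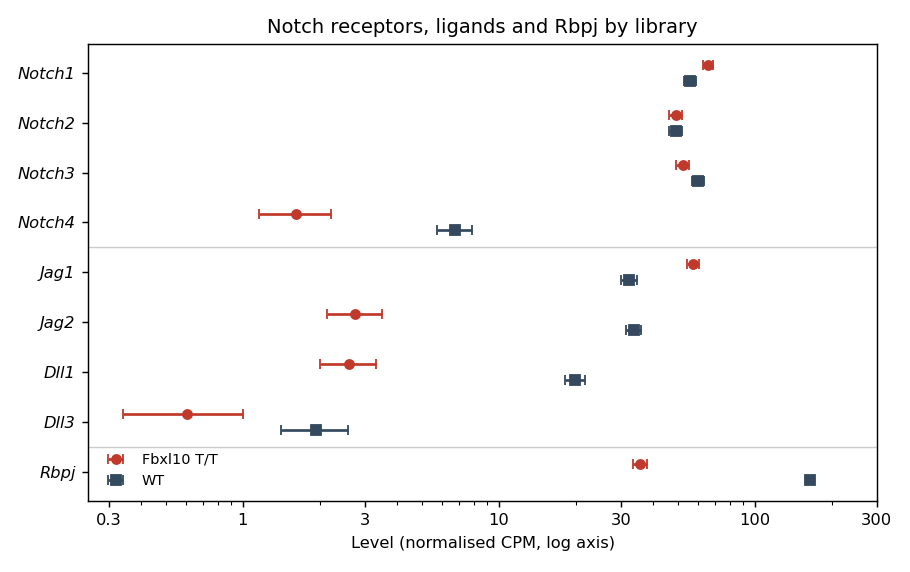
Level of each listed gene in the Fbxl10 T/T library (circles) and the WT library (squares), in normalised CPM on a log axis, with 95% Poisson counting intervals; grey lines divide receptors, ligands and Rbpj. Notch1, Notch2 and Notch3 sit between 49.1 and 65.7 CPM in both libraries, while Jag2, Dll1, Notch4 and Rbpj sit to the left in Fbxl10 T/T.

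Among the receptors, Notch1, the family member best known from T cell development, had 65.7 CPM in Fbxl10 T/T (1623 reads) and 56.0 CPM in WT (1338 reads). Notch2, which acts in B cells, kidney and bile duct, had 49.1 CPM in Fbxl10 T/T (1211 reads) and 49.2 CPM in WT (1175 reads). Notch3, the receptor of vascular smooth muscle, had 52.3 CPM in Fbxl10 T/T (1290 reads) and 60.2 CPM in WT (1437 reads). None of these receptors came near the 2-fold threshold. The Fbxl10 T/T over WT ratio was 1.17 (interval 1.09 to 1.26) for Notch1 and 0.997 (0.919 to 1.08) for Notch2, and for Notch3 it was 0.868 (0.805 to 0.937). Setting the upper quartiles of both libraries equal turned the direction for Notch1, with a log2 ratio of -0.01. At that setting Notch2 was at -0.24 and Notch3 at -0.44. Smooth muscle and pericyte markers, set beside Notch3, summed to 420.0 CPM in Fbxl10 T/T and 546.4 CPM in WT over 6 listed of 10, with Rgs5, Myh11, Kcnj8 and Abcc9 not listed.

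Notch4, a receptor of vascular endothelium, was the receptor that stood apart. It had 1.62 CPM in Fbxl10 T/T (40 reads) and 6.74 CPM in WT (161 reads), 4.16-fold lower in Fbxl10 T/T with an interval of 2.93- to 6.04-fold. It was low in both libraries: per kilobase of transcript, Notch4 made up 1.34% of the summed receptor level in Fbxl10 T/T and 5.35% in WT. The summed receptor level was 168.7 CPM in Fbxl10 T/T and 172.1 CPM in WT, so the total hardly differed. Endothelial markers did not move together: they summed to 222.2 CPM in Fbxl10 T/T and 101.9 CPM in WT, and their part in the level of Notch4 was not tested. Of 8 listed, 3 were 2-fold higher and 4 were 2-fold lower, and Esam, Cdh5 and Kdr (120.3, 44.2 and 36.5 CPM in Fbxl10 T/T, and 7.96, 3.94 and 2.64 CPM in WT) were higher while Pecam1 (3.89 CPM in Fbxl10 T/T and 73.7 CPM in WT) was lower. The marker genes Emcn and Erg were not listed.

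The ligands diverged, and the 2 Jagged genes did so most. Jag2, a ligand with roles in limb, palate and thymus, had 2.75 CPM in Fbxl10 T/T (68 reads) and 33.7 CPM in WT (805 reads). This was 12.2-fold lower (interval 9.55- to 15.9-fold), and the log2 ratio of -3.39 lay below that of all but 1.56% of genes. The authors' deposited table gives 3.61 as the log2 ratio of WT over T/T for Jag2. Jag1, a ligand needed in heart, bile duct and inner ear, had 57.3 CPM in Fbxl10 T/T (1414 reads) and 32.4 CPM in WT (773 reads). Its ratio was 1.77 (interval 1.62 to 1.93), under the 2-fold threshold, and its log2 ratio of 0.81 exceeded that of 80.6% of genes. Per kilobase of transcript, Jag1 was at 10.2 CPM in Fbxl10 T/T and 5.77 CPM in WT, and Jag2 at 0.539 CPM in Fbxl10 T/T and 6.602 CPM in WT, so the paralogues were close in WT and far apart in Fbxl10 T/T.

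The Delta-like genes were both lower. Dll1, a ligand of neural progenitors and the presomitic mesoderm, had 2.59 CPM in Fbxl10 T/T (64 reads) and 19.9 CPM in WT (475 reads), 7.67-fold lower with an interval of 5.90- to 10.1-fold. Dll3, a divergent family member that acts inside the cell against Notch rather than activating it, had 0.608 CPM in Fbxl10 T/T (15 reads) and 1.93 CPM in WT (46 reads). It was 3.17-fold lower, but with few reads the interval ran from 1.74- to 6.11-fold. With a pseudocount of 1 CPM its log2 ratio was -0.86, which misses the 2-fold threshold and leaves 4 listed genes lower. Markers of the tissues that use these ligands were mixed: 5 of 7 listed neural progenitor markers and 2 of 4 listed presomitic mesoderm markers were 2-fold lower, and 0 of either were 2-fold higher. The neural progenitor markers Olig1 and Olig2 were at 3.97 and 3.48 CPM in Fbxl10 T/T and at 64.8 and 42.7 CPM in WT, and the mesoderm markers Tcf15 and Mesp2 at 2.998 and 0.324 CPM in Fbxl10 T/T and at 69.7 and 4.61 CPM in WT. Tubb3 had 82.2 CPM in Fbxl10 T/T and 59.9 CPM in WT, and Nes had 25.4 CPM in Fbxl10 T/T and 26.5 CPM in WT. The mesoderm markers Meox1 and Tbx18 did not reach 2-fold on the log2(CPM + 0.5) scale. Without the pseudocount Meox1 was 2.41-fold lower (interval 1.28- to 4.75-fold) and Tbx18 2.54-fold lower (1.52- to 4.38-fold). Over the whole lists, 7 neural progenitor markers summed to 115.6 CPM in Fbxl10 T/T and 203.5 CPM in WT, with Sox1, Neurog2 and Dcx not listed. The 4 listed presomitic mesoderm markers summed to 4.82 CPM in Fbxl10 T/T and 78.1 CPM in WT, and T, Tbx6, Mesp1, Msgn1, Ripply2 and Uncx were not listed. Tcf15 alone made up 69.7 CPM of the WT sum, so this sum rests on 1 gene. The part of such cells in the ligand levels was not tested.

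In sum the listed ligands had 63.2 CPM in Fbxl10 T/T and 87.9 CPM in WT, a difference of 1.39-fold, but their make-up differed far more. Jag1 took 90.6% of ligand reads in Fbxl10 T/T (interval 89.0 to 92.0%, of 1561 reads) and 36.8% in WT (34.8 to 38.9%, of 2099 reads). Jag2 took 4.36% in Fbxl10 T/T and 38.4% in WT, and Dll1 took 4.10% in Fbxl10 T/T and 22.6% in WT. After division by transcript length the share of Jag1 was 87.2% in Fbxl10 T/T and 30.9% in WT, so the contrast did not depend on gene size. Jag1 is expressed by many cell types. Fibroblast markers summed to 1356 CPM in Fbxl10 T/T and 2546 CPM in WT over 9 listed of 10, with 0 of them 2-fold higher and 2 of them 2-fold lower, and Fn1 (437.1 CPM in Fbxl10 T/T and 1418 CPM in WT) made much of the difference between the sums. All 10 endoderm markers were 2-fold higher. The part of feeder or endoderm cells in the level of Jag1 was not tested.

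**Figure D2:**
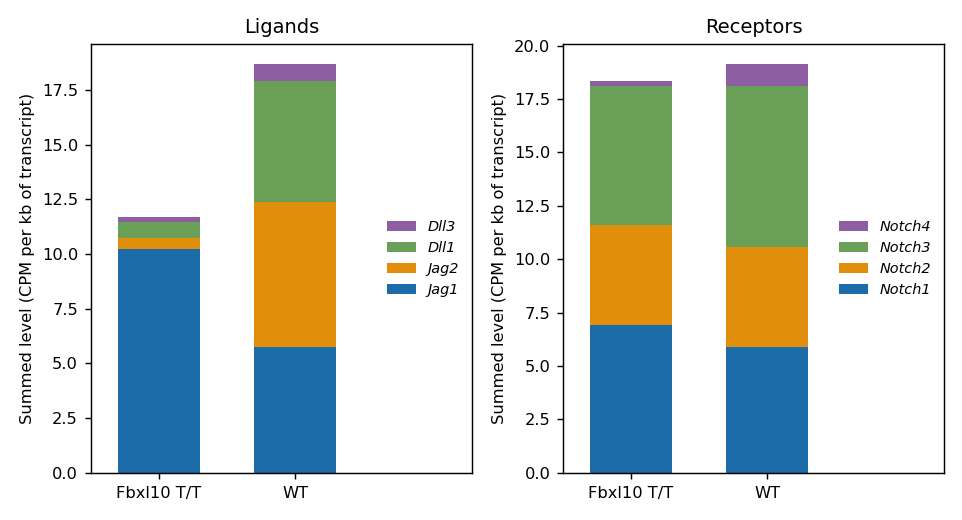
Summed level of the listed ligands (left) and receptors (right) in the Fbxl10 T/T and WT libraries, in CPM per kilobase of transcript, divided by gene. Jag1 fills 87.2% of the ligand bar in Fbxl10 T/T and 30.9% in WT, while the receptor bars differ little.

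Rbpj, the transcription factor through which all 4 receptors signal, was the most abundant of these RNAs in WT and was lower in Fbxl10 T/T. It had 35.6 CPM in Fbxl10 T/T (880 reads) and 164.7 CPM in WT (3933 reads), 4.62-fold lower with an interval of 4.29- to 4.98-fold. Its log2 ratio of -2.19 lay above that of 7.45% of genes. A processed pseudogene, Rbpj-ps3, was listed as well, at 14.7 CPM in Fbxl10 T/T (364 reads) and 76.9 CPM in WT (1837 reads), and was 5.22-fold lower (4.66- to 5.85-fold). Reads of such a copy and of its parent can be exchanged in alignment, so the absolute level of Rbpj is uncertain. With the reads of both added, a check made after their values were seen, the sum was 50.4 CPM in Fbxl10 T/T and 241.6 CPM in WT, 4.79-fold lower.

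**Figure D3:**
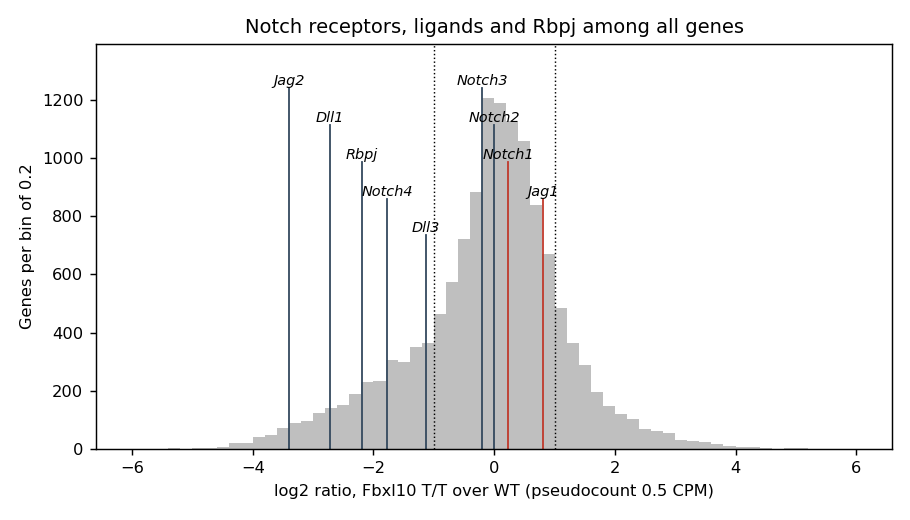
Histogram of the log2 ratio of Fbxl10 T/T over WT for 13512 genes (grey, bins of 0.2, ends clipped at 6), with a line for each listed Notch gene and dotted lines at 2-fold. Jag2, Dll1, Rbpj, Notch4 and Dll3 stand left of the lower line, and Notch1, Notch2, Notch3 and Jag1 lie between the lines.

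Levels of different genes were compared per kilobase of transcript. In Fbxl10 T/T, Jag1 came first at 10.2 CPM per kb, followed by Notch1 (6.93), Rbpj (6.53), Notch3 (6.52) and Notch2 (4.67). Counting intervals overlapped between Notch1 and Rbpj and between Rbpj and Notch3. Far below came Dll1 (0.724 CPM per kb) and Jag2 (0.539), then Notch4 (0.246) and Dll3 (0.232), and within each of these pairs the intervals overlapped. In WT the order began with Rbpj at 30.2 CPM per kb, then Notch3 (7.51), Jag2 (6.602), Notch1 (5.90), Jag1 (5.77), Dll1 (5.55) and Notch2 (4.69), with Notch4 (1.02) and Dll3 (0.736) last. From Jag2 to Dll1 each WT neighbour overlapped the next, as did Notch4 and Dll3. Per kilobase, Jag1 was thus above every receptor in Fbxl10 T/T with Jag2 and Dll1 far below Notch1, Notch2 and Notch3, whereas in WT all 3 ligands lay between Notch3 and Notch2.

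The genes lie on several chromosomes. In mm9, the build of the deposited table, Jag2 spans chromosome 12 from 114146801 to 114167706, Jag1 chromosome 2 from 136907224 to 136942155, and Rbpj chromosome 5 from 53947018 to 54048684. Dll1 (15504322 to 15512551), Notch3 (32257838 to 32303797) and Notch4 (34701240 to 34725476) all lie on chromosome 17. Notch1 lies on chromosome 2 from 26313556 to 26365177, Notch2 on chromosome 3 from 97851650 to 97951367 and Dll3 on chromosome 7 from 29076673 to 29086804. GENCODE M21 places exons of opposite-strand transcripts over exons of Notch1, Notch3 and Dll1, none of them listed in the table, and an unlisted same-strand transcript shares 541 exon bases with Notch2. The strand setting of the counting is not given in the sources used here, so reads from the opposite-strand transcripts cannot be told apart from those of the 3 genes, and strand would not separate those of Notch2.

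Because the KDM2B protein binds CpG-rich DNA, the letters before the start sites were examined. RefSeq (GRCm38.p6) gives 12 windows for all 10 genes, each from 250 bases before to 50 after a start. All windows of the genome table (32851) had a median of 7 CpG, with quartiles of 3 and 20. Notch2, at a similar level in both libraries, had 41, and Notch4, which was lower, had 5. Jag1 had 22, Rbpj 26 and 28 in its 2 windows, Dll1 15 and 24, Notch1 23, Notch3 25, Dll3 11 and Dll4 17. Jag2 had 63, more than 99.97% of windows, though this window and that of Dll3 lie within exons in GENCODE M21. CpG-rich windows thus occurred both before genes that were lower and before genes at similar levels. The stretches shown, for a receptor at a similar level, a receptor that was lower, the ligands Jag1 and Dll1, and Rbpj, run 5′ to 3′ on the gene's strand and end where the gene's first GENCODE exon or the RefSeq start begins. Capitals mark CpG, and positions are in GRCm38.p6, not in the mm9 build of the gene spans.

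Notch2, chr3:98013288-98013526, plus strand: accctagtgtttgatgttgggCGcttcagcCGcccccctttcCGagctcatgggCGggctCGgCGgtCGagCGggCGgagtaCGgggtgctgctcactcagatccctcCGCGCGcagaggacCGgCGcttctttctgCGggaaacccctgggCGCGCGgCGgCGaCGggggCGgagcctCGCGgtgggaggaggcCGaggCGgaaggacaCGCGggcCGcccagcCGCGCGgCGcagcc
Notch4, chr17:34564045-34564267, plus strand: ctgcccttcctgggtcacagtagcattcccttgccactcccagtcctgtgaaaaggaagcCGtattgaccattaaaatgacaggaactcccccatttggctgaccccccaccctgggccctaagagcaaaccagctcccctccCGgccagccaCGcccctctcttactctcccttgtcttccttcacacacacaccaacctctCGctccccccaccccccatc
Jag1, chr2:137116645-137116770, minus strand: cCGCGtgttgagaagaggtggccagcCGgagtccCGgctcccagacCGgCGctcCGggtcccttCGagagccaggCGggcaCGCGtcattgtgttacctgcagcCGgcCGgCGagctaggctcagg
Dll1, chr17:15376933-15377182, minus strand: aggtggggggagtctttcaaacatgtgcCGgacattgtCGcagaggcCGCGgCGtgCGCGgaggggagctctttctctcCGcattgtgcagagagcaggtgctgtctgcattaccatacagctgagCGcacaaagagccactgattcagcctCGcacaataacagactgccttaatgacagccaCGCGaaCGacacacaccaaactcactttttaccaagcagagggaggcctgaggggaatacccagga
Rbpj, chr5:53590096-53590213, plus strand: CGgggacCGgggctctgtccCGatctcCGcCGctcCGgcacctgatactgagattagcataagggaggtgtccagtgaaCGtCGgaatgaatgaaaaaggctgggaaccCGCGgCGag

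The stretches hold 34 CpG for Notch2 in 239 bases and 4 for Notch4 in 223, while those of Jag1 (14 in 126), Dll1 (13 in 250) and Rbpj (11 in 118) lie in between. The core motif bound by RBPJ, GTGGGAA, was searched on both strands of the 300-base windows. It was in 0 of the 12 windows of these genes and in 6.38% of all windows, which says only that these letters are not in the windows.

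The wider pathway was described with 75 further genes by their step, of which 67 were listed. Of these, 12 were at least 2-fold higher and 16 at least 2-fold lower, which is 17.9% and 23.9%, close to the shares over all genes. Their median log2 ratio was -0.11. The step lists are short, from 3 to 14 listed genes. Over all genes 14.8% were 2-fold higher and 20.6% were 2-fold lower. The co-repressors, at 21.4% higher and 14.3% lower, and ligand uptake, at 14.3% and 28.6%, were near these shares. The cleavage genes were at 44.4% higher and 0% lower, and receptor turnover at 0% and 54.5%. Medians by step had either sign, as the plot by step shows.

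**Figure D4:**
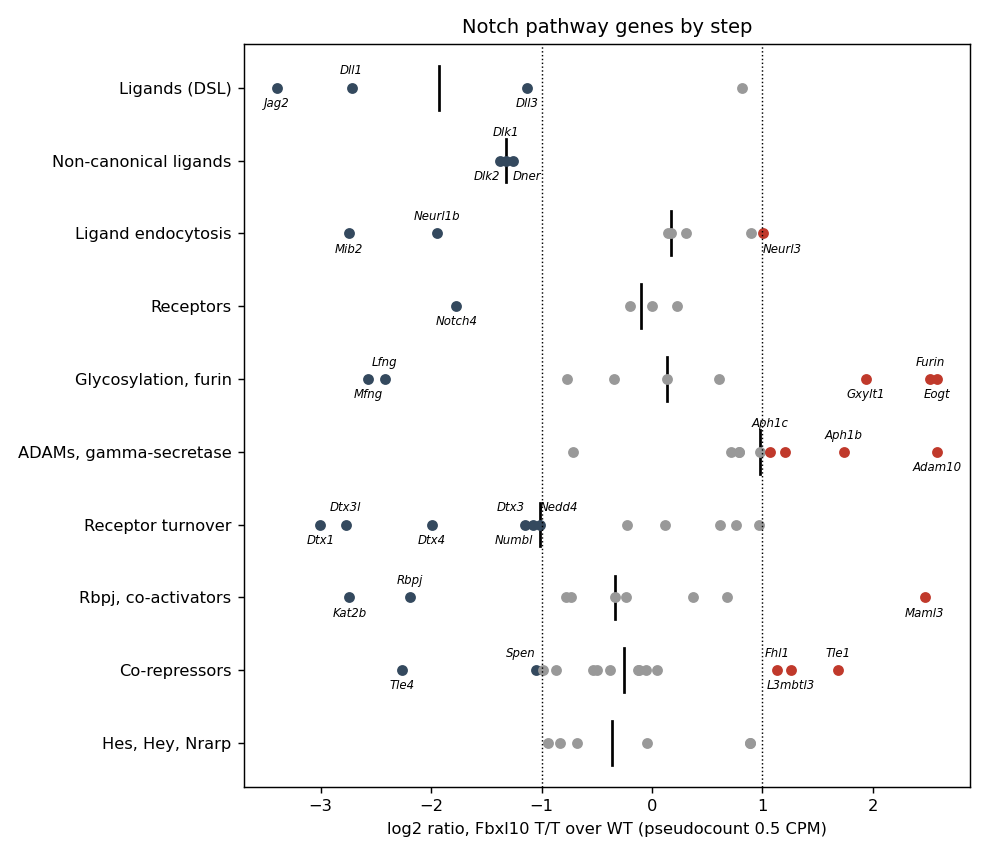
Log2 ratio of Fbxl10 T/T over WT for listed Notch pathway genes, each row a step, with names for most genes at least 2-fold higher (red) or lower (dark blue), the median as a black bar and dotted lines at 2-fold. The cleavage enzymes have a median of 0.98 and the receptor turnover genes a median of -1.02.

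Of 9 genes for receptor cleavage, the sheddases and gamma-secretase, 4 were 2-fold higher, 0 were 2-fold lower and 5 lay in between. Adam10, the protease that makes the first ligand-induced cut, had 97.1 CPM in Fbxl10 T/T and 15.8 CPM in WT, 6.15-fold higher (interval 5.51- to 6.87-fold). Adam17, a related sheddase, had 27.8 CPM in Fbxl10 T/T and 13.9 CPM in WT. It was 2.00-fold higher without the pseudocount, but in between on the log2(CPM + 0.5) scale used for the counts. Psen2, a catalytic subunit gene of gamma-secretase, had 11.9 CPM in Fbxl10 T/T and 19.8 CPM in WT. The subunit gene Aph1b had 7.45 CPM in Fbxl10 T/T and 1.88 CPM in WT, and Aph1c had 2.92 CPM in Fbxl10 T/T and 1.13 CPM in WT. Aph1b and Aph1c are near-identical copies, so reads may be divided between them unevenly.

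Among the enzymes that mature and glycosylate the receptor, 3 of 9 were 2-fold higher and 2 were 2-fold lower. Furin, which cleaves the receptor precursor in the Golgi and also processes many other proteins, had 814.6 CPM in Fbxl10 T/T and 141.5 CPM in WT, 5.76-fold higher. Eogt, which adds N-acetylglucosamine to EGF repeats, had 64.5 CPM in Fbxl10 T/T and 10.3 CPM in WT, and Gxylt1, a xylosyltransferase acting on the same repeats, had 63.9 CPM in Fbxl10 T/T and 16.3 CPM in WT. The fringe genes, whose enzymes lengthen O-fucose and alter which ligands a receptor answers to, differed among themselves. Lfng had 0.932 CPM in Fbxl10 T/T and 7.16 CPM in WT, and Mfng had 0.446 CPM in Fbxl10 T/T and 5.11 CPM in WT. Lfng and Mfng were listed through their WT levels alone, which favours a lower call. Rfng had 31.2 CPM in Fbxl10 T/T and 39.6 CPM in WT and made up 95.8% of fringe reads in Fbxl10 T/T (interval 94.1 to 97.1%), against 76.4% in WT (73.9 to 78.7%).

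Of 7 genes for the uptake of ligand, which provides the pull, 1 was 2-fold higher and 2 were 2-fold lower. Mib1, the ubiquitin ligase that ligand signalling chiefly needs in the mouse, had 32.2 CPM in Fbxl10 T/T and 17.1 CPM in WT, and its relative Mib2 had 14.9 CPM in Fbxl10 T/T and 102.6 CPM in WT, 6.90-fold lower. Neurl1b was at 0 reads in Fbxl10 T/T and 34 reads in WT, and the exact interval of its ratio began at 9.02-fold lower. Neurl3, the higher gene, had 1.26 CPM in Fbxl10 T/T (31 reads) and 0.377 CPM in WT (9 reads). It only just passed 2-fold on the log2(CPM + 0.5) scale. Neurl3 was listed through its Fbxl10 T/T level alone, which favours a higher call. The non-canonical ligand genes Dlk1 (4.25 CPM in Fbxl10 T/T and 11.4 CPM in WT), Dlk2 (0.162 CPM in Fbxl10 T/T and 1.21 CPM in WT) and Dner (0.162 CPM in Fbxl10 T/T and 1.09 CPM in WT) were all 2-fold lower, the last pair from 4 reads each in Fbxl10 T/T. Dlk2, Dner and Neurl1b were listed through their WT levels alone, so with these few reads in Fbxl10 T/T a lower call was fixed by the listing. Cntn1 and Cntn6 were not listed.

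Of 11 genes for receptor turnover, 6 were 2-fold lower and 0 were 2-fold higher. The Deltex genes, whose products bind the intracellular part of Notch or are named for likeness to one that does, gave 4 of these. Dtx1 had 0.810 CPM in Fbxl10 T/T and 10.01 CPM in WT (12.4-fold lower), and Dtx3l had 0.689 CPM in Fbxl10 T/T and 7.62 CPM in WT. Dtx1 and Dtx3l were listed through their WT levels alone, which favours a lower call. Dtx4 had 3.24 CPM in Fbxl10 T/T and 14.4 CPM in WT, and Dtx3 had 38.2 CPM in Fbxl10 T/T and 85.3 CPM in WT. Numb, an inhibitor of Notch that in the fly is passed unequally to daughter cells, had 53.1 CPM in Fbxl10 T/T and 31.2 CPM in WT, while its paralogue Numbl had 47.8 CPM in Fbxl10 T/T and 101.5 CPM in WT. The ubiquitin ligase gene Nedd4 had 348.0 CPM in Fbxl10 T/T and 704.3 CPM in WT. Aak1, a kinase gene of endocytosis, had 13.04 CPM in Fbxl10 T/T and 6.41 CPM in WT. Aak1 was 2.04-fold higher without the pseudocount, but under 2-fold on the log2(CPM + 0.5) scale.

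The partners of RBPJ divided. Of 8 listed co-activator genes, Maml3 was 2-fold higher and Kat2b 2-fold lower. Maml3, a Mastermind protein gene of the activating complex, had 24.8 CPM in Fbxl10 T/T and 4.06 CPM in WT, 6.10-fold higher, and Maml2 had 2.11 CPM in Fbxl10 T/T and 1.13 CPM in WT. Maml1, at 99.1 CPM in Fbxl10 T/T and 116.7 CPM in WT, was at a similar level. Kat2b, an acetyltransferase gene, had 4.17 CPM in Fbxl10 T/T and 30.7 CPM in WT, and Ep300 had 95.6 CPM in Fbxl10 T/T and 164.8 CPM in WT. Of 14 co-repressor genes, 3 were 2-fold higher and 2 were 2-fold lower. Tle1 (138.2 CPM in Fbxl10 T/T and 42.8 CPM in WT), L3mbtl3 (22.4 CPM in Fbxl10 T/T and 9.04 CPM in WT) and Fhl1 (316.5 CPM in Fbxl10 T/T and 144.0 CPM in WT) were higher. Tle4 (40.1 CPM in Fbxl10 T/T and 194.3 CPM in WT) and Spen (104.1 CPM in Fbxl10 T/T and 216.1 CPM in WT) were lower. For Fhl1, the form of the protein that binds RBPJ comes from 1 splice variant, which gene counts do not separate.

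None of the 6 listed Hes, Hey and Nrarp genes, the target list used here, differed 2-fold on the log2(CPM + 0.5) scale. Without the pseudocount Heyl was 2.12-fold lower. Hes1, the best known target and a repressor that also answers to other signals, had 62.0 CPM in Fbxl10 T/T (1531 reads) and 63.9 CPM in WT (1525 reads), a ratio of 0.971 (interval 0.904 to 1.04). Hey1 had 5.27 CPM in Fbxl10 T/T and 9.76 CPM in WT, Heyl had 2.39 CPM in Fbxl10 T/T and 5.07 CPM in WT, and Nrarp, a feedback inhibitor gene, had 6.28 CPM in Fbxl10 T/T and 10.3 CPM in WT. Hey2, at 6.52 CPM in Fbxl10 T/T and 3.31 CPM in WT, and Hes6, which encodes an antagonist of HES1 and had 36.2 CPM in Fbxl10 T/T and 19.4 CPM in WT, were on the other side. The summed level of the 6 was 118.7 CPM in Fbxl10 T/T and 111.7 CPM in WT. Hes6 alone differed by more CPM than these sums, so the direction of the sum rests on Hes6. Hes2, Hes3, Hes5 and Hes7 were not listed. In these libraries the lower level of Rbpj stood beside an almost equal level of Hes1. Hey1, Heyl and Nrarp were lower and Hey2 and Hes6 higher, all short of 2-fold on the log2(CPM + 0.5) scale.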

How the data were processed

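Per the submitters' processing notes, the build was mm9 and TopHat 1.4.1, HTSeq 0.5.3p9 and edgeR were used. No source used here gives the role of each tool, the annotation or whether counting used strand. The authors deposited, for each gene, a normalised signal in each of the 2 libraries and a log2 ratio of WT over T/T with a log2 mean level. Of 24706 rows, 11086 repeat a gene and were used once. All signal values (100%) were whole multiples of 1 step per library within 0.01 reads, so read counts could be recovered, with 27109446 reads for Fbxl10 T/T and 21198574 for WT.

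Log2 ratios are T/T over WT with a pseudocount of 0.5 CPM, for genes that reached 1 CPM in either library, and 2-fold was the threshold. Folds use no pseudocount. Transcript length is that of the longest GENCODE M21 transcript paired with a RefSeq accession of the table. An exact binomial comparison of recovered reads with Benjamini-Hochberg adjustment passed 11372 genes at 0.05; it compares libraries, not genotypes, so it is used only as an alternative. A count model with replicate variation was not fitted, as 1 library per genotype gives no estimate of it. The named genes are all listed members and targets, with the 2 ends of each pathway list and its genes past 2-fold. The single marker genes given with values, and Adam17, Maml1 and Rfng, were picked after their values were seen. Some single genes that the rule would name are not reported here. The members, lists and rules were chosen with earlier results of these data known. The steps were tested on simulated reads. Software was matplotlib 3.10.9, scipy 1.17.1, Python 3.11.15, pandas 2.3.3 and numpy 2.4.6.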

Additional observations from a re-analysis of the deposited data

How the results depend on the processing

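No paired analysis was possible because each genotype has a single library, for which reason none could be left out. Rescaling to a common upper quartile shifted all log2 ratios by -0.24, and rescaling to a median ratio of 1 shifted them by -0.02. At a common upper quartile the median of the 67 other pathway genes was -0.35 and Notch1 changed sign, the only sign change among 54 ratios of single members recomputed under both rescalings, 0.1 or 1 CPM as the pseudocount, a minimum level of 5 CPM or none and, for Rbpj, the addition of its pseudogene. At a 1.5-fold threshold 1 of the 9 listed members (Jag1) was higher, and 24 other pathway genes were higher and 25 lower; at 4-fold 3 members were lower, and 4 other pathway genes were higher and 7 lower, as a change of threshold does by construction. The remaining counts of members and pathway genes stayed within 1.5-fold. Of the 54 ratios, 7 moved past their counting intervals. At a common upper quartile these were Notch1, Notch2, Notch3, Jag1 (log2 ratio 0.58) and Rbpj (-2.43). With a pseudocount of 1 CPM they were Dll1 and Jag2. Over all genes, the count of lower genes was 1737 at a minimum of 5 CPM, against 2781, and the median was -0.21 at a common upper quartile; thresholds of 1.5-fold and 4-fold gave 3582 and 519 higher and 3876 and 1229 lower genes. Dll3, with 15 reads in Fbxl10 T/T, drops out at a minimum of 5 CPM and misses 2-fold with a pseudocount of 1 CPM. Low read counts leave wide intervals for Neurl1b, Dner, Dlk2, Neurl3, Mfng and Dll3.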
